A study of Homo sapiens with 8 samples.

Results

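Retinoic acid signalling and metabolism were represented by 10 genes: the receptor genes RARA, RARB, RARG, RXRA and RXRB, the synthesis gene ALDH1A2, the breakdown genes CYP26A1 and CYP26B1, and the carrier genes CRABP1 and CRABP2. They were chosen by function, and a peak was counted for a gene where the authors list that gene beside it at a distance of at most 50 kb. By this rule 122 of 201619 peaks belonged to the 10 genes, out of 19703 genes named in the lists. The peaks came from chromatin immunoprecipitation with sequencing for 3 factors of the pluripotency network, SOX2, OCT4 and NANOG. The 6 libraries were 1 per factor in H9, a human embryonic stem cell line, and in NT2/D1, a human embryonal carcinoma line from a germ cell tumour. The labels name no treatment, and no library is labelled as exposed to retinoic acid. Each line also has an IgG sample, used here only as the control named in the peak calls. For NT2/D1 the sample titles and the source names exchange OCT4 and NANOG, and each library is called here by its title, so every NT2/D1 statement that sets these factors apart rests on the titles. Unique tags numbered 54046559 to 77649240 in the H9 libraries and 10218752 to 23160564 in those of NT2/D1. With 1 library per factor and line no difference could be tested, and the lack of a call does not show the lack of binding.

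Retinoic acid is made from retinol by way of retinal, and the last step is carried out by retinaldehyde dehydrogenases such as the product of ALDH1A2. It enters the nucleus, where a heterodimer of a retinoic acid receptor (RAR) and a retinoid X receptor (RXR) binds response elements built of a pair of short repeats, represses without ligand and activates with it. CYP26 enzymes oxidise retinoic acid and so limit the signal, and the CRABP proteins carry it in the cytoplasm. NT2/D1 cells leave the pluripotent state and form neurons when treated with retinoic acid, for which this line is widely used.

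Peaks of at least 1 factor lay within 50 kb of all 10 genes in NT2/D1 and of 9 in H9, where RXRA had none. Of all genes, 10.8% in NT2/D1 and 26.1% in H9 had no peak of any factor at this distance. In H9, SOX2 peaks lay near 6 of the 10 (33.5% of all genes had one), OCT4 peaks near 9 (55.3%) and NANOG peaks near 8 (54%). In NT2/D1, SOX2 peaks lay near 8 (55%), OCT4 peaks near 10 (75.7%) and NANOG peaks near 9 (55.2%). ALDH1A2, RARB, RXRB and CRABP1 had a peak in all 6 libraries, as did 11.5% of all genes. The median number of peaks per gene, summed over the factors of a line, was 5 for the 10 genes and 2 for all genes in H9, and 7.5 and 3 in NT2/D1. A gene with distant neighbours is listed beside more peaks, and these counts were not corrected for that.

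**Figure D1:**
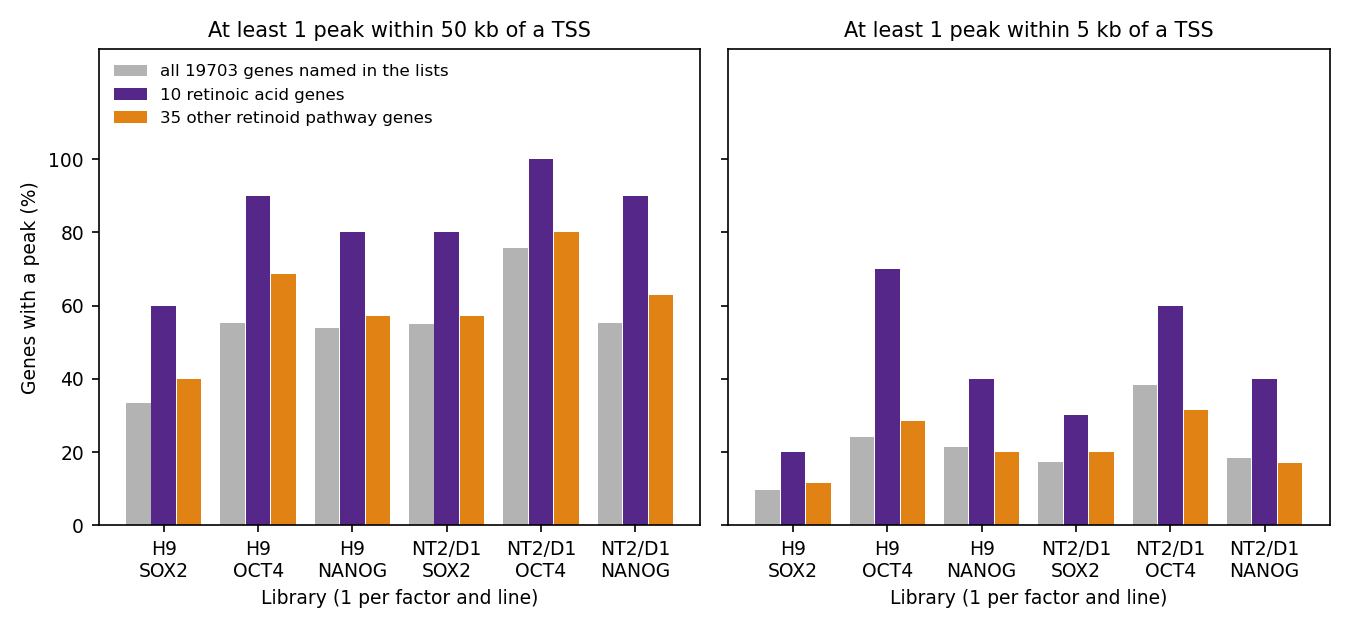
Share of genes with at least 1 peak within 50 kb (left) or 5 kb (right) of a transcription start site, in percent, in each of the 6 libraries. Grey bars stand for all 19703 genes named in the lists, purple bars for the 10 retinoic acid genes and orange bars for 35 other retinoid pathway genes; the purple bar is the highest of each group of bars.

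Closer to the gene starts, the largest count was that of OCT4 in H9. Within 5 kb of a transcription start site (TSS), 7 of 10 genes had an H9 OCT4 peak, against 24.1% of all genes. The counts were 2 for H9 SOX2 (all genes 9.57%) and 4 for H9 NANOG (21.4%). In NT2/D1, 3 members had a SOX2 peak (17.3%), 6 an OCT4 peak (38.4%) and 4 a NANOG peak (18.3%) at this distance. Within 1 kb, no member had an H9 SOX2 peak (all genes 4.28%), 1 had an H9 OCT4 peak (14.8%) and 3 an H9 NANOG peak (12.6%). In NT2/D1 1 member had a SOX2 peak so close (6.5%), 3 an OCT4 peak (26.4%) and 1 a NANOG peak (7.51%). Of the 122 peaks, 9 (7.38%) lay within 1 kb of the start and 41 (33.6%) within 5 kb, against 11.9% and 24.1% of all pairs of a peak and a gene within 50 kb. Upstream of the start lay 57, downstream 64 and across it 1. Whether a downstream peak was exonic or intronic was not worked out, because no hg19 annotation was used here.

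The score of a peak, which rises as its p-value falls, was turned into a percentile within its own list, so that 50 is the middle of every list. In H9 the median percentile of the members' peaks was 53.2 (SOX2), 42.1 (OCT4) and 57.8 (NANOG), and in NT2/D1 it was 63.4, 30.1 and 61.2. A SOX2 peak above the 90th percentile in H9 lay near 1 member (all genes 4.36%), such an OCT4 peak near 1 (6.84%) and such a NANOG peak near 2 (7.28%). In NT2/D1, 3 members had such a SOX2 peak (10.4%), 1 an OCT4 peak (12.9%) and 4 a NANOG peak (9.86%). The deposited FDR does not follow this rank in every list: of the peaks above the 90th percentile, 0% had an FDR of at most 5% in NT2/D1 for SOX2 and for NANOG, against 90.6 to 100% in the other lists. Most members had peaks of middling rank, and most of those above the 90th percentile lay at ALDH1A2, RARG and RXRA, with 1 each at RARB, CRABP1 and CRABP2.

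**Figure D2:**
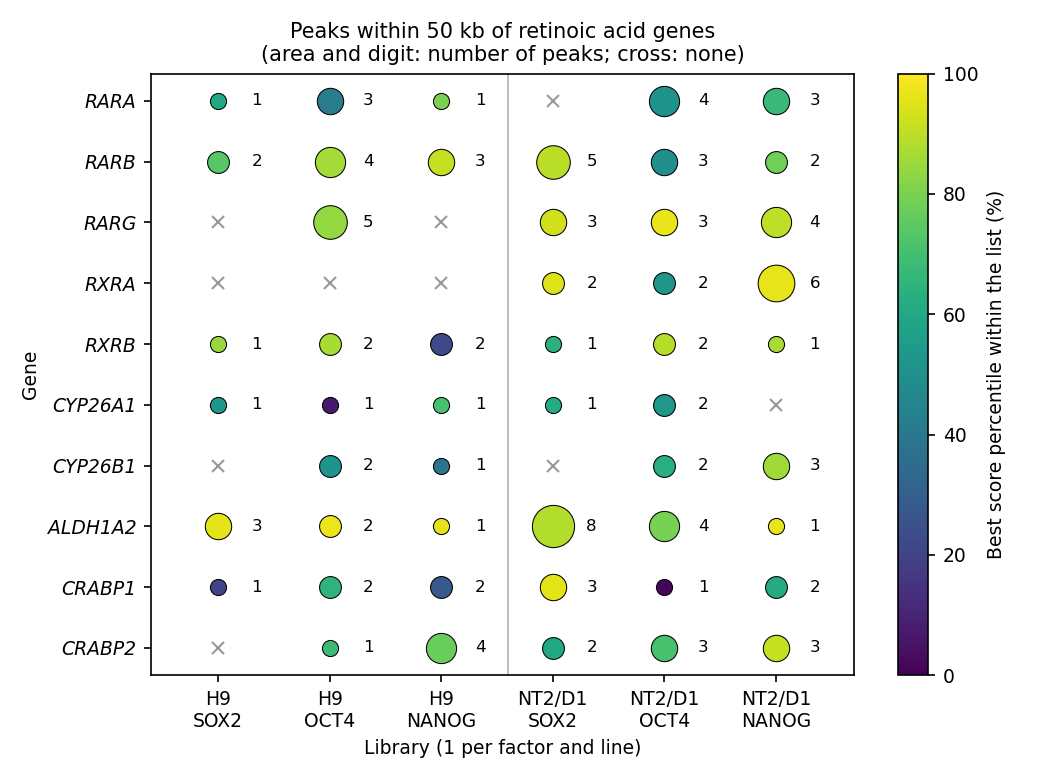
Best score percentile within the list (colour, 0 to 100) and number of peaks (area and digit) within 50 kb of each of the 10 genes (rows) in each library (columns); a grey cross marks a gene with no peak. ALDH1A2 has yellow circles in all 3 H9 libraries, and RXRA has crosses in all of them and 10 peaks in NT2/D1.

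Averaged over the 6 libraries, with 0 where a gene had no peak, the best percentile was 92.1 for ALDH1A2, 78.2 for RARB and 72.1 for RXRB. It was 61.2 for CRABP2, 60.5 for RARG, 49.98 for RARA, 44.99 for CRABP1, 40.8 for CYP26A1, 40.6 for RXRA and 39.8 for CYP26B1. The median of all genes was 28.3. With 1 library each, these means have no error, and close neighbours such as CRABP2 and RARG, or CYP26A1, RXRA and CYP26B1, cannot be put in order. The genes whose 6 best percentiles were closest to those of ALDH1A2, by Euclidean distance over the 6 libraries, were MGC27382 (7.32), LRRC2 (7.34), ALG6 (8.14), and CKLF and TK2 (9.60 each, with the same values in every library).

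ALDH1A2, which encodes the enzyme that makes retinoic acid in much of the early embryo, carried the highest ranked site of the 10 genes in H9. The region at chr15:58356114-58357121 (hg19) lay 785 to 1336 bp downstream of a TSS and was called in all 6 lists. In H9 the peaks held 93 tags for SOX2 (fold over background 18.2, percentile 95.7), 64 for OCT4 (fold 10.8, percentile 97.0) and 113 for NANOG (fold 25.5, percentile 96.1). In NT2/D1 they held 10 tags for SOX2 (fold 7.29, percentile 68.0), 10 for OCT4 (fold 6.11, percentile 42.5) and 16 for NANOG (fold 10.4, percentile 96.2). The FDR of the NT2/D1 peaks was 3.07% for SOX2, 16.03% for OCT4 and 18.02% for NANOG, and that of the H9 peaks 0.53 to 3.68%. The summits of the 6 peaks spanned 28 bp, so the calls of both lines met at 1 place. All 3 H9 peaks and the NT2/D1 NANOG peak stood above the 95th percentile of their lists, while the NT2/D1 SOX2 and OCT4 peaks did not. A region called in all 6 lists lay within 50 kb of 2 members, against 3.21% of all genes.

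The other ALDH1A2 peaks were mostly SOX2 peaks, and in H9 all of them ranked below the shared site. In H9 a SOX2 peak of 35 tags (percentile 32.6) and an OCT4 peak of 16 tags (percentile 5.997) lay 15263 and 15641 bp downstream of the start, where NT2/D1 had a SOX2 peak of 13 tags (fold 9.37, percentile 88.4). NT2/D1 had 8 SOX2 peaks at this gene, with percentiles from 17.1 to 88.4, and 4 OCT4 peaks, while NANOG had only the shared site in either line. Some NT2/D1 peaks ranked above the shared site in their own lists, among them that SOX2 peak and an OCT4 peak of 7 tags 8323 bp upstream of a start (fold 11.45, percentile 79.4). ALDH1A2 is listed with more than 1 start, and distances refer to the start the authors give for each peak.

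**Figure D3:**
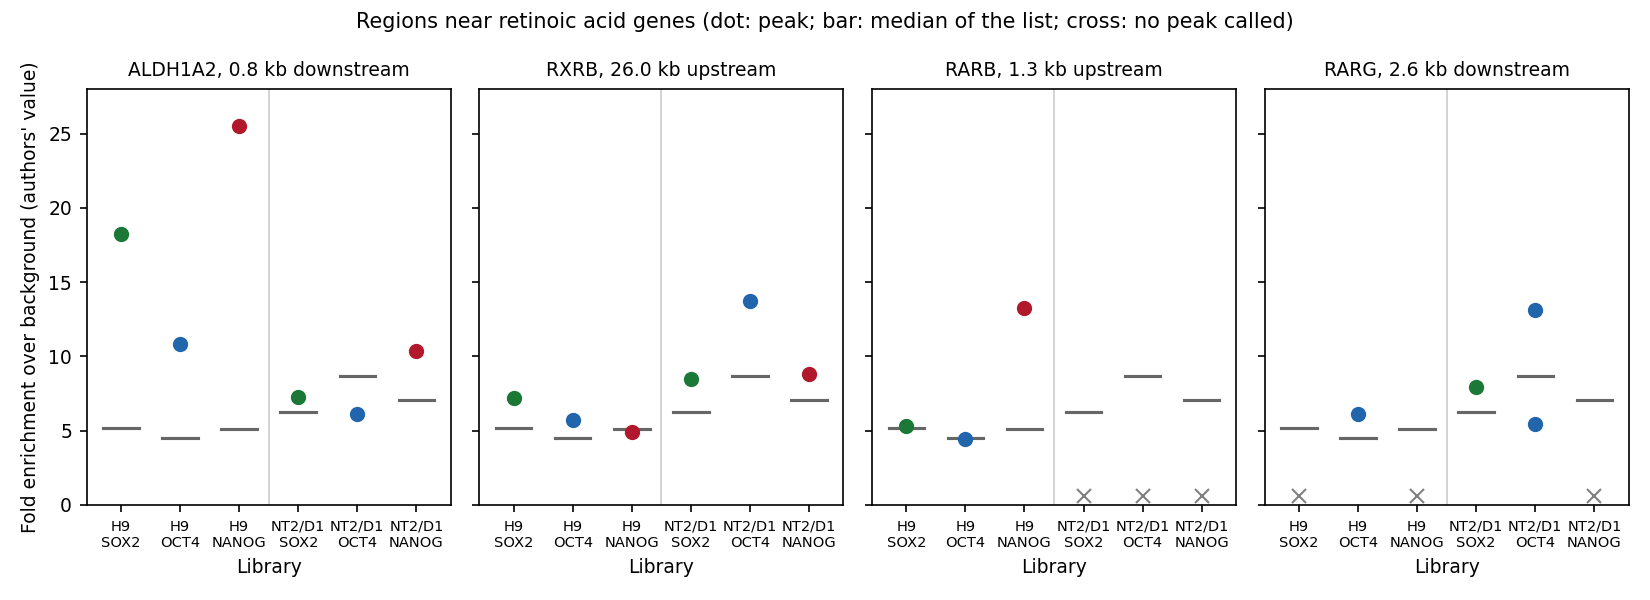
Fold enrichment over background, as the authors give it, of the peaks in 4 regions near ALDH1A2, RXRB, RARB and RARG (panels) in each library; dots are peaks, the grey bar is the median fold of the list and a cross marks no called peak. At ALDH1A2 all H9 dots lie above the bar and the NT2/D1 OCT4 dot lies below it, and at RARB no NT2/D1 peak was called.

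RARB encodes the retinoic acid receptor whose own promoter is induced by retinoic acid through a response element. RefSeq promoter windows (GRCh38.p14) matched all 10 genes, with 19 windows in all. A direct repeat of GTTCA with 6 bases between, searched on both strands, was found in windows of RARB and CYP26A1 and in 20 of 35116 windows overall (0.057%). This motif was added after the RARB window had been read. Both stretches of 250 bases before the start are shown because they hold this repeat, which is in capitals. They lie at chr3:25428013-25428262 (plus strand) and chr10:93073643-93073892 (plus strand, with the repeat on the opposite strand).
RARB: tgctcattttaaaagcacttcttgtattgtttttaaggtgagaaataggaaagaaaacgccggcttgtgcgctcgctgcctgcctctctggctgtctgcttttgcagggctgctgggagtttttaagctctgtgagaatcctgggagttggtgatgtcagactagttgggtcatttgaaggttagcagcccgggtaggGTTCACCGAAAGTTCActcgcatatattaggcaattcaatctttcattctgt
CYP26A1: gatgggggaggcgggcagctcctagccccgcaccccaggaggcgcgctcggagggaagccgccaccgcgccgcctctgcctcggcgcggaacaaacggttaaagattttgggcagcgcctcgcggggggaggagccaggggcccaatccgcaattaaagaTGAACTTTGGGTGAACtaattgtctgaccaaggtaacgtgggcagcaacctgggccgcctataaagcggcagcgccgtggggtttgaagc

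By the listed distances no called peak lay at either repeat. The nearest RARB peak in any list ended 1320 bp before a TSS, and the nearest CYP26A1 peak began 429 bp after one, while the repeats start 52 and 90 bases before the RefSeq starts. The octamer ATGCAAAT was in none of the 19 windows (1.77% of all windows), the SOX motif CATTGT was in windows of RARB and RXRA (10.8%), and the receptor motif AGGTCA in windows of RARA and RARB (13.8%), other windows of RARB than the one shown. Direct repeats of AGGTCA with 5 or 2 bases between were in none of the members' windows, and in 2 and 1 of all windows. All motifs were searched on both strands, and AGGTCA also lies within the longer repeats of it.

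The RARB site with all 3 factors was called in H9 only. At chr3:25467596-25468433, 1320 to 1514 bp upstream of the TSS, SOX2 had 58 tags (fold 5.33, percentile 73.8), OCT4 34 tags (fold 4.42, percentile 67.2) and NANOG 82 tags (fold 13.25, percentile 91.0). None of the 3 NT2/D1 lists had a peak there. A further region 7285 to 8414 bp upstream (chr3:25461024-25462468) was called by OCT4 in both lines and by NANOG in H9. Its strongest H9 peaks held 66 tags for OCT4 (fold 4.42, percentile 86.5) and 76 for NANOG (fold 6.77, percentile 85.4), and its NT2/D1 OCT4 peaks 11 and 9 tags (percentiles 11.6 and 49.96). The NT2/D1 OCT4 peaks had an FDR of 21.79 and 15.55%. The summits of the highest ranked peak of each list spanned 429 bp. That span used the NT2/D1 OCT4 peak of 9 tags, with its summit at 25462254. The NT2/D1 OCT4 peak of 11 tags lay inside the strongest H9 OCT4 peak, with summits at 25461939 and 25461826. Thus OCT4 was the factor called in both lines within 1 joined region at RARB.

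Elsewhere at RARB the lines had different peaks. NT2/D1 had 5 SOX2 peaks, the strongest 24591 bp downstream with 12 tags (fold 8.49, percentile 89.8). Its 2 NANOG peaks lay 18898 and 31255 bp downstream with 10 and 8 tags. In H9 SOX2 and NANOG shared a region 26060 to 26239 bp downstream, with 37 and 44 tags (percentiles 50.6 and 43.0). No NT2/D1 peak overlapped that region, although an NT2/D1 SOX2 peak lay between it and the start.

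RARG, the RAR gene best known from skin and cartilage, had 5 OCT4 peaks in H9 and no called peak of SOX2 or NANOG. The strongest region, chr12:53610697-53611510, lay 2640 to 3032 bp downstream of a TSS. The H9 OCT4 peak there held 56 tags (fold 6.13, percentile 83.7). In NT2/D1 OCT4 had a peak of 26 tags (fold 13.1, percentile 96.6) and another of 13 tags (percentile 13.5), and SOX2 one of 25 tags (fold 7.95, percentile 92.7). The summits of the highest ranked peak of each list lay within 50 bp, and the percentile of 96.6 was the highest NT2/D1 OCT4 percentile of any member.

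NANOG was called at RARG in NT2/D1 only, with 4 peaks. Chromosome 12, where RARG lies, held 4.99% of the H9 NANOG peaks and 8.69% of those of NT2/D1, and the part of this in the RARG calls was not tested. The strongest, 4392 bp upstream of a start, held 11 tags (fold 7.77, percentile 90.1) and overlapped an H9 OCT4 peak of 56 tags (fold 3.44, percentile 39.0). SOX2 and NANOG peaks of NT2/D1 also overlapped, 512 and 663 bp downstream of a start, with 10 and 8 tags (percentiles 60.7 and 25.3). All 15 RARG peaks lay within 8.15 kb of a start, whereas those of RXRA reached 48.7 kb. A gene is listed only up to the next start, so the range open to RARG was narrower. The farthest RARG peak lay 4669 bp from the start of ITGB7, while the other gene listed at the farthest RXRA peak was 164202 bp away. This contrast therefore does not describe how binding is laid out.

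RARA, the most widely expressed of the RAR genes, had 12 peaks, none above the 90th percentile. The strongest region, chr17:38451548-38452673, was called in H9 by NANOG (78 tags, fold 6.67, percentile 80.0) and SOX2 (62 tags, fold 4.71, percentile 59.8). Its NANOG peak lay 12793 bp upstream of RARA and 7403 bp from CDC6, a replication licensing gene, and its SOX2 peak 12772 and 7758 bp. The 3 H9 OCT4 peaks held 27 to 39 tags, with percentiles of 7.25 to 41.8. In NT2/D1, NANOG and OCT4 shared a region 4832 to 4849 bp upstream of a start, with 9 and 6 tags (percentiles 67.2 and 19.3), and there was no SOX2 peak.

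RXRA, which encodes a shared partner of the RARs and of other nuclear receptors, had no H9 peak of any factor and 10 peaks in NT2/D1. No H9 peak was found within 50 kb for 26.1% of all genes, and 201 of 19703 genes (1.02%) had no H9 peak and at least as many NT2/D1 peaks as RXRA. Among the 820 genes on chromosome 9, where RXRA lies, 4 (0.488%) had this pattern. The pattern was taken from the counts of RXRA, which is itself among the genes counted, so these shares describe it and do not test it. No RXRA peak had another gene nearer, and the counts were not corrected for distant neighbours. Chromosome 9 held a mean of 4.01% of the H9 peaks and 5.34% of the NT2/D1 peaks, a ratio of 1.33. Over the members' chromosomes this ratio ran from 0.396 (chromosome 6, RXRB) to 1.86 (chromosome 1, CRABP2). The part of these differences, and of the other calling settings in NT2/D1, in the peaks of RXRA and of the other members was not tested.

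The RXRA peaks were spread over both sides of the start. NANOG had 6, from 8 to 18 tags, the strongest 48662 bp upstream (fold 8.96, percentile 96.2). SOX2 had 1 of 15 tags 5351 bp downstream (fold 11.3, percentile 95.04) and 1 of 13 tags 41957 bp downstream (fold 7.29, percentile 90.4). OCT4 had 2, with 10 and 11 tags and percentiles of 29.0 and 52.6. Only the downstream SOX2 peak 41957 bp from the start overlapped a peak of another factor, a NANOG peak of 10 tags (percentile 71.0).

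**Figure D4:**
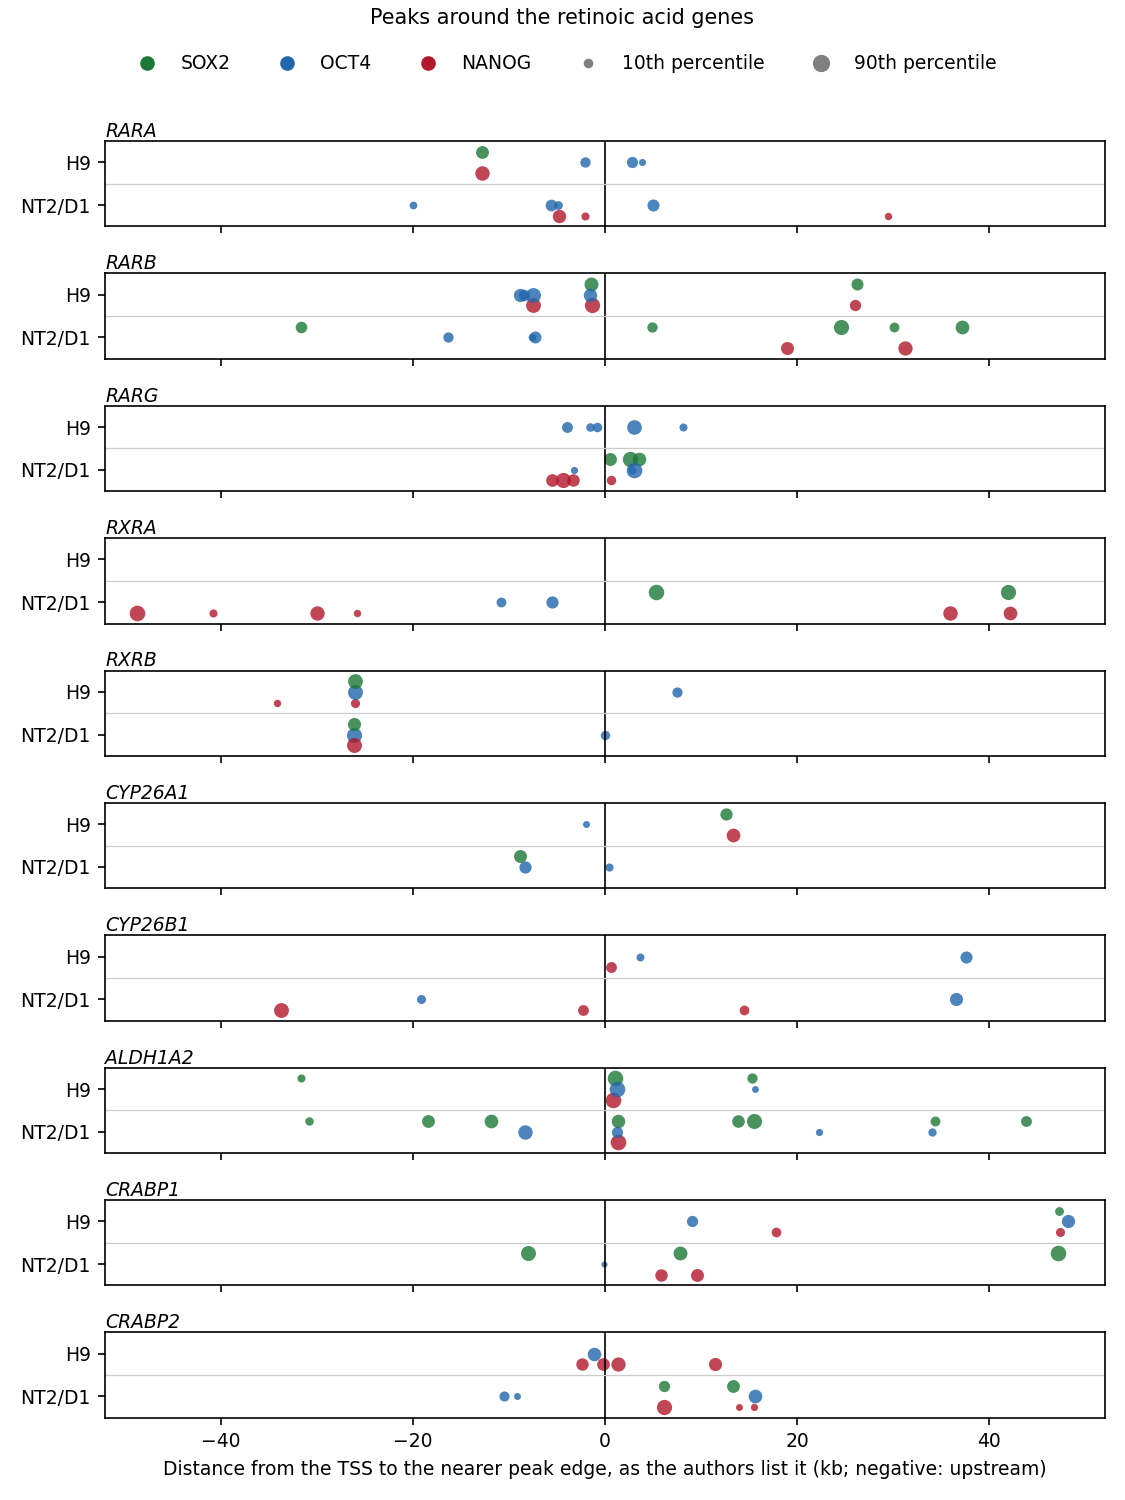
Distance in kb from the TSS to the nearer edge of each of the 122 peaks (negative, upstream), 1 panel per gene, with H9 above and NT2/D1 below; colour gives the factor and size the score percentile. Points of all 3 factors line up in both lines at ALDH1A2 and RXRB and in H9 at RARB, while RXRA has points in NT2/D1 only.

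RXRB, which encodes another RXR, was beside the other region called in all 6 lists. At chr6:33194423-33195149, 25991 to 26157 bp upstream of RXRB, the H9 peaks held 90 tags for SOX2 (fold 7.22, percentile 84.4), 74 for OCT4 (fold 5.71, percentile 87.0) and 46 for NANOG (fold 4.91, percentile 22.3). The NT2/D1 peaks held 15 tags for SOX2 (fold 8.49, percentile 63.4), 11 for OCT4 (fold 13.7, percentile 88.7) and 13 for NANOG (fold 8.8, percentile 87.1). The summits spanned 107 bp. This region was nearer to RING1, a Polycomb ubiquitin ligase gene 18138 to 18304 bp away, and 8 of the 9 RXRB peaks had another gene nearer. The remaining one, an NT2/D1 OCT4 peak of 14 tags (fold 4.78, percentile 24.6), was the only peak of any member that overlapped a TSS.

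Regions with all 3 factors of a line therefore lay near 3 members in H9, ALDH1A2, RARB and RXRB, against 17.1% of all genes, and near 2 in NT2/D1, ALDH1A2 and RXRB, against 5.6%. Within 5 kb of a start, 2 members in H9 (4.34% of all genes) and 1 in NT2/D1 (1.38%) had such a region, and within 1 kb 1 in H9 (1.88%) and 0 in NT2/D1 (0.67%). ALDH1A2 was among them in each case but the last. One IgG library was the control of all 3 H9 lists, and another that of the SOX2 and NANOG lists of NT2/D1, and the part of this in their shared regions was not tested. RXRB is not counted in either line when a peak belongs only to the nearer gene.

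The breakdown genes had 6 and 8 peaks, the fewest of the 10 genes, and none above the 90th percentile. CYP26A1, a strongly retinoic acid-inducible hydroxylase gene, had 6. In H9 they were an OCT4 peak of 22 tags 1968 bp upstream (fold 3.68, percentile 6.37), a SOX2 peak of 37 tags 12580 bp downstream (fold 5.34, percentile 53.2) and a NANOG peak of 53 tags 13315 bp downstream (fold 5.05, percentile 70.9). In NT2/D1 a SOX2 peak of 11 tags and an OCT4 peak of 7 tags lay 8851 and 8313 bp upstream, nearer to CYP26C1, its neighbour and paralog, at 2984 and 3706 bp. An OCT4 peak of 6 tags lay 429 bp downstream (percentile 14.6), and no NANOG peak was called in NT2/D1. No CYP26A1 site was shared between the lines.

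CYP26B1, the paralog that clears retinoic acid in the limb, brain and fetal gonad, had no SOX2 peak in either line. In H9 it had OCT4 peaks of 22 and 28 tags (percentiles 51.6 and 13.5) and a NANOG peak of 37 tags 622 bp downstream (fold 4.48, percentile 38.4). In NT2/D1 its strongest peak was a NANOG peak of 21 tags 33734 bp upstream (fold 8.45, percentile 85.9). The OCT4 peaks of H9 and NT2/D1 37574 and 36492 bp downstream did not overlap.

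Of the carriers, CRABP2, whose product hands retinoic acid to RARs, had 13 peaks. NANOG had 4 in H9, of which the strongest, 1375 bp downstream, held 44 tags (fold 10.8, percentile 77.3), and 1 lay 258 bp upstream with 55 tags (fold 5, percentile 57.8). An H9 OCT4 peak of 43 tags lay 1181 bp upstream (percentile 68.3), and H9 SOX2 had none. In NT2/D1, NANOG and SOX2 overlapped 6186 and 6119 bp downstream, with 19 tags (fold 7.04, percentile 91.0) and 17 tags (fold 4.35, percentile 42.6). Of the peaks farther downstream, 3 were nearer to NES, the neural progenitor gene encoding nestin. H9 and NT2/D1 peaks did not overlap at CRABP2.

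CRABP1, a cytoplasmic binding protein gene often used to mark retinoid-responsive cells, had its main region at the edge of the window. At chr15:78679828-78680587, 47163 to 47301 bp downstream, NT2/D1 SOX2 had 20 tags (fold 8.49, percentile 95.3), H9 SOX2 39 tags (fold 3.61, percentile 19.9) and H9 NANOG 29 tags (fold 4.73, percentile 22.0). The same region ranked high in one SOX2 list and low in the other. At the promoter an NT2/D1 OCT4 peak of 7 tags lay 63 bp upstream, with a percentile of 1.22, near the bottom of its list.

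The distance limit fell among CRABP1 and RXRA peaks. Just inside it lay CRABP1 peaks of H9 NANOG at 47301 bp (percentile 22.0) and H9 OCT4 at 48136 bp (percentile 64.7) and the RXRA NANOG peak at 48662 bp. Just outside lay CRABP1 peaks of NT2/D1 SOX2 at 52532 bp (percentile 12.8), H9 NANOG at 54917 bp (percentile 63.7) and NT2/D1 NANOG at 56074 bp (percentile 15.5).

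Merged over the 6 lists, the members' peaks formed 89 regions. Of these, 72 (80.9%) were called in 1 list only, against 80.6% of all regions with a gene within 50 kb. H9 peaks alone made up 27 regions (30.3%, against 27.1% of all such regions), NT2/D1 peaks alone 55 (61.8%, against 63.6%), and 7 held peaks of both lines (7.87%, against 9.3%). These shares were near those of all regions. Those 7 lay at ALDH1A2 and RARG, with 2 each, and at RARB, RXRB and CRABP1, with 1 each. RARA, RXRA, CRABP2 and the CYP26 genes had none. The H9 lists come from deeper libraries and were called with a band width of 2000, against 200 in NT2/D1, and the part of this in the overlap was not tested.

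The wider retinoid pathway was described by 35 other genes for transport, synthesis, breakdown, receptors and coregulators. In H9, 14 of them had a SOX2 peak within 50 kb (40%, 95% Wilson interval 25.6 to 56.4%), 24 an OCT4 peak (68.6%, 52.02 to 81.4%) and 20 a NANOG peak (57.1%, 40.9 to 72.0%). In NT2/D1, 20 had a SOX2 peak (57.1%, 40.9 to 72.0%), 28 an OCT4 peak (80%, 64.1 to 89.96%) and 22 a NANOG peak (62.9%, 46.3 to 76.8%). The share of all genes lay inside each of these intervals, which cover counting error only.

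By role, all 6 genes of uptake, transport and storage had an OCT4 peak in each line, and among 10 corepressors and coactivators 6 had one in H9 and 10 in NT2/D1, where the shares of all genes were 55.3% and 75.7%. Of 16 genes for the synthesis of retinal and retinoic acid, 5 had a SOX2 peak in H9 (31.25%, all genes 33.5%) and 8 in NT2/D1 (50%, all genes 55%). In H9 a region with all 3 factors lay near 3 of the 35 genes, FABP5, LRAT and RERE, against 17.1% of all genes. In NT2/D1 such a region lay near 4 of the 35, LRAT and RXRG among them, against 5.6% of all genes.

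LRAT, which encodes the enzyme that stores retinol as esters, had the highest percentile of the 35 genes. Its best H9 peaks held 88 tags for SOX2 (fold 8.89, percentile 83.0), 131 for OCT4 (fold 6.87, percentile 93.9) and 247 for NANOG (fold 13.25, percentile 95.4). Its best NT2/D1 peaks held 31 tags for SOX2 (fold 21.9, percentile 99.3), 27 for OCT4 (fold 9.02, percentile 97.6) and 15 for NANOG (fold 14.25, percentile 96.7). All 6 lay 906 to 1282 bp from a listed start, and 5 of the 6 were above the 90th percentile.

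Other genes with high values are given by their best peak. RXRG, another RXR gene, had an NT2/D1 NANOG peak of 26 tags 42061 bp away (fold 5.79, percentile 97.3). FABP5, a fatty acid binding protein gene that can also bind retinoic acid, had an H9 OCT4 peak of 87 tags 20339 bp away (fold 6.26, percentile 96.1). FABP5 had no NT2/D1 peak of any factor within 50 kb, as was the case for 10.8% of all genes. RXRG had no H9 SOX2 peak at this distance, where 33.5% of all genes had one. RERE, a coregulator gene, had an H9 NANOG peak of 113 tags 27321 bp away (fold 17.4, percentile 94.9). RBP4, the plasma retinol carrier gene, had an NT2/D1 SOX2 peak of 13 tags 15794 bp away (fold 9.26, percentile 93.6).

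When every list was cut to the 19349 peaks of the shortest one, H9 SOX2 peaks lay near 6 members (all genes 33.5%), H9 OCT4 peaks near 8 (40.5%) and H9 NANOG peaks near 5 (34.8%). The NT2/D1 counts were 8 (SOX2, 36.6%), 5 (OCT4, 47.3%) and 9 (NANOG, 40%). The count of 10 for NT2/D1 OCT4 thus rested on the longest list and its lower ranked peaks. In the upper 50% of each list by score, the H9 counts were 5 (SOX2, 18.7%), 7 (OCT4, 32.2%) and 5 (NANOG, 31.2%), and those of NT2/D1 8 (36.4%), 8 (53.4%) and 9 (37.1%). At an FDR of at most 5% where the NT2/D1 SOX2 and NANOG lists lose their highest ranked peaks, the H9 counts by the same order were 4 (17.6%), 6 (25.9%) and 8 (45.7%), and the NT2/D1 counts 7 (51.1%), 3 (28.7%) and 7 (48.7%).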

How the data were processed

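Chromatin immunoprecipitation libraries of SOX2, OCT4 and NANOG in H9 and NT2/D1 (1 each, 6 peak lists) were analysed; 8 samples are labelled, and the IgG samples were not analysed on their own. Peaks were called per library with MACS on tags of 50 bases against IgG at a p-value cutoff of 0.001, per the file headers; the version and the aligner are not given in the sources used here, and the build is hg19 per the submitters' processing notes. Per the file headers, the deposited values are the tag count in each peak (not scaled to depth), the fold enrichment as a ratio to the local background, and an FDR in percent. The column name of the deposited score is damaged; its lowest value of 30 matches the p cutoff on a scale of minus 10 times log10 p, and it was read so. These values describe peaks within a list only.

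The authors list 2 genes per peak, the gene whose start the peak lies upstream of (99.6% of 150409 checked peaks) and the one it lies downstream of (99.7% of 151469), so a gene is named only where no other start comes first. A peak was given to a gene at a distance of at most 50 kb. Regions were peaks of the lists joined on an overlap of 1 bp or more. Percentiles are ranks by score within a list. The NT2/D1 lists used a band width of 200 and H9 2000, and the NT2/D1 OCT4 list a model fold of 5, the others 3. All H9 lists share 1 IgG library of 58012070 unique tags; NT2/D1 SOX2 and NANOG share one of 2937004 unique tags, and OCT4 has another of 6479071, while 1 IgG sample of this line is labelled. With 1 library per factor and line no test was made, and precision cannot be estimated from replicates.

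Named were all 10 members, the 6 of the 35 wider genes with the highest percentile, the 5 genes most like the top member over 6 libraries, and genes nearer to a member peak; some results for the wider genes are not reported here. The members and lists were chosen with earlier results of these data known. The alternatives were other distances, list lengths, FDR and overlap limits, gene assignments and the exchanged NT2/D1 labels. The gene assignment was tested on simulated data. Python 3.11.15, pandas 2.3.3, NumPy 2.4.6, SciPy 1.17.1 and matplotlib 3.10.9 were used.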

Additional observations from a re-analysis of the deposited data

How the results depend on the processing

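Of 144 alternative values, 107 stayed within 1.5 times the main count and 37 did not; none of these counts has a test. Within 5 kb, members with a peak numbered 2 (H9 SOX2), 4 (H9 NANOG), 3 (NT2/D1 SOX2), 6 (NT2/D1 OCT4) and 4 (NT2/D1 NANOG), and wider genes 4 (H9 SOX2), 10 (H9 OCT4), 7 (H9 NANOG), 7 (NT2/D1 SOX2), 11 (NT2/D1 OCT4) and 6 (NT2/D1 NANOG). Within 20 kb, wider genes numbered 15 (H9 OCT4), 13 (H9 NANOG) and 13 (NT2/D1 NANOG). In the upper 50% of each list, members numbered 5 for H9 NANOG, and wider genes 9 (H9 SOX2), 13 (H9 OCT4), 12 (H9 NANOG), 13 (NT2/D1 SOX2) and 12 (NT2/D1 NANOG). With lists of equal length, members numbered 5 for H9 NANOG and 5 for NT2/D1 OCT4, and wider genes 15 (H9 OCT4), 12 (H9 NANOG), 13 (NT2/D1 SOX2), 16 (NT2/D1 OCT4) and 14 (NT2/D1 NANOG). At a deposited FDR of at most 5%, members numbered 3 for NT2/D1 OCT4, and wider genes 9 for SOX2 and 11 for OCT4 in H9 and 8 for OCT4 in NT2/D1. Members with a region of all 3 factors in NT2/D1 numbered 1 within 5 kb, within 20 kb and with the nearer gene only (ALDH1A2). They also numbered 1 in the upper 50% and with lists of equal length (RXRB). At an FDR of at most 5% they numbered 0. This limit removes every peak above the 90th percentile from the NT2/D1 SOX2 and NANOG lists. At ALDH1A2 it removed the NT2/D1 NANOG peak (FDR 18.02%, percentile 96.2) and the OCT4 peak (FDR 16.03%, percentile 42.5). At RXRB it removed the NT2/D1 NANOG peak (FDR 7.91%, percentile 87.1). In H9, ALDH1A2 and RARB kept such a region under each of these settings, and RARB lost it at a reciprocal overlap of 50%. The shorter distances and the limits on score, list length and FDR each keep fewer peaks, so counts can only stay or fall under them. The nearer gene setting leaves out the farther gene of each peak, and the reciprocal overlap asks for more overlap before peaks are joined. No paired analysis was possible because each factor and line has 1 library. Without replicates, differences between lists cannot be told apart from those of depth, calling settings and library, and sites below the calling threshold in the shallower NT2/D1 libraries were not detectable.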
